A study of Mus musculus with 9 samples.

Results

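Blood cells of the myeloid branch are made under a small set of transcription factors, and 7 of their genes are described here: Cebpa, Cebpb, Cebpd, Cebpe, Spi1, Irf8 and Gfi1. They were taken by gene symbol from the deposited table, in which all 7 of the 7 were found among 14940 genes, and all 7 were among the 13018 genes tested. RNA came from LSK cells of the bone marrow, a sorted fraction (no lineage markers, Sca1+, cKit+) in which the stem cells and their earliest multipotent offspring lie. Each of 9 C57BL/6 mice gave 1 library, and the mice formed 3 groups of 3. The first group was immunized to induce experimental autoimmune encephalomyelitis (EAE) and given SR59230A, an antagonist of β3-adrenergic receptors, for 3 days. The second was immunized in the same way and taken after 3 days without the antagonist. The third was naive. Immunization used complete Freund's adjuvant together with a peptide of myelin oligodendrocyte glycoprotein, so adjuvant and peptide cannot be told apart. No vehicle is named for the EAE mice without the antagonist, and no age of the mice is stated in the sources used here.

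The factors work in sequence and against each other. PU.1, encoded by Spi1, and C/EBPα, encoded by Cebpa, open the myeloid program in multipotent cells, and C/EBPα is required for the step to the granulocyte-monocyte progenitor. IRF8 then favours monocytes and dendritic cells, while GFI1 and C/EBPε favour neutrophils. C/EBPβ and C/EBPδ are the members of the same leucine zipper family best known from infection and inflammation.

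Values below are the authors' adjusted whole numbers divided by a library scaling factor, and are called scaled values. They are not read counts, so the depth behind them is unknown, and intervals for counting error are not given. Log2 fold changes were taken on log2(scaled value + 1), which understates changes of low genes, and are given with their SE. A gene is said to have risen or fallen where limma-trend gave a Benjamini-Hochberg adjusted p under 0.05 over all 13018 genes. The values sum to between 8641735 and 10387955 per library. Kit, the gene of cKit, lay between 4846 and 7235 and Ly6a, the gene of Sca1, between 1412 and 2539, so both genes of the gate were well measured in all 9 libraries. Kit fell and Ly6a rose in EAE against naive mice, so the gate markers moved with the groups. EAE replicate 2 stood apart on the third principal component, which held 13.2% of the variance, at -36.0 against -5.59 to 22.5 for the other 8 libraries.

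The first comparison asks what immunization changed within 3 days. Cebpd, Cebpe, Irf8, Cebpa and Spi1 rose in EAE against naive mice, and none of the 7 fell. The rises were 3.26-fold for Cebpd, 2.22-fold for Irf8, 1.97-fold for Cebpa and 1.24-fold for Spi1. Cebpe, a low gene, entered the test only through immunized libraries, the groups in which it was high. Its fold depended on the pseudocount and is given with its values below. Cebpb and Gfi1 had positive log2 fold changes that did not pass. Over all genes tested, 9.13% were called higher, 5.1% lower and 14.2% in either direction. The EAE libraries lay wholly above the naive ones for 6 of the 7 genes, all but Cebpb, and for 21% of all genes. The median log2 fold change of the 7 genes was 0.98, against -0.00 for all genes. In bulk libraries, more cells of a type within the gate and more RNA per cell cannot be told apart.

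**Figure D1:**
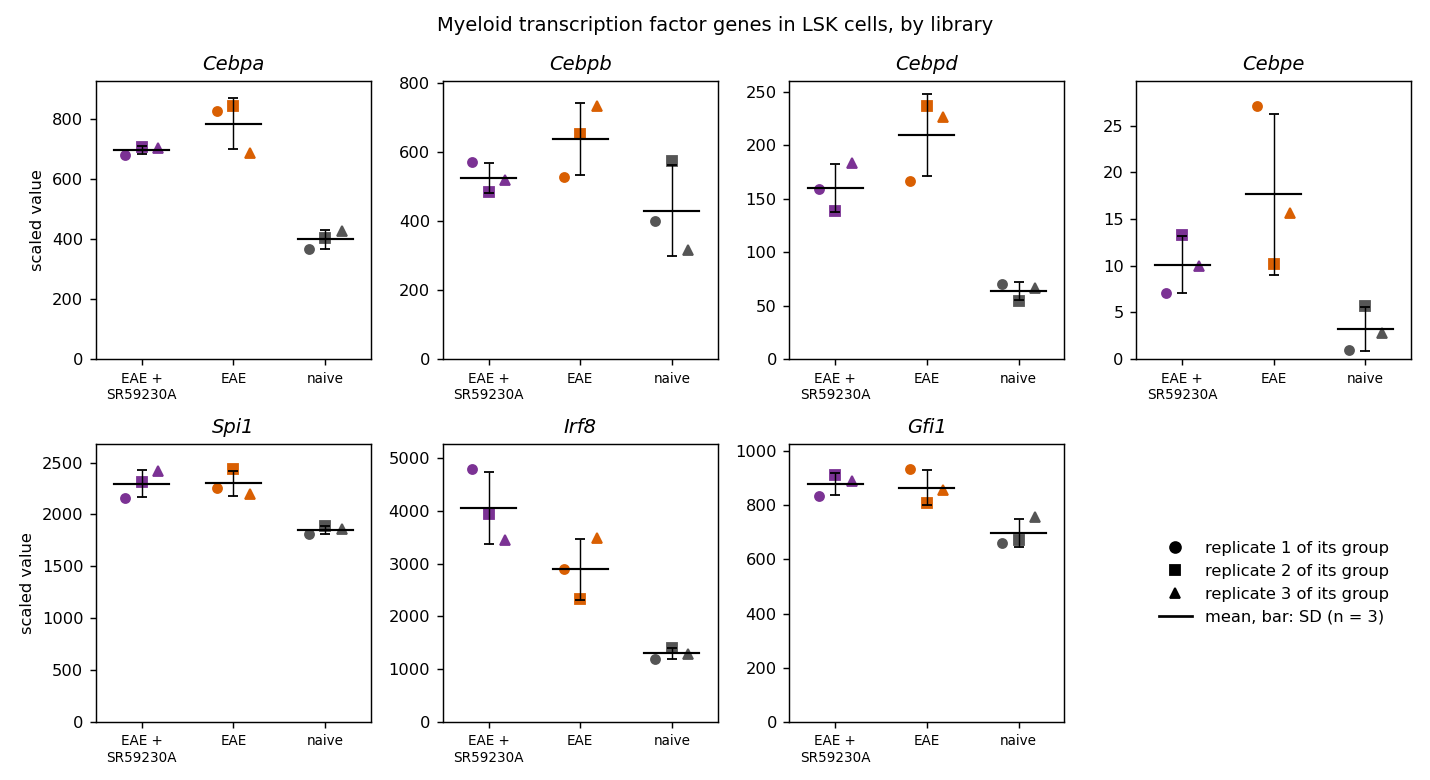
Scaled value (linear axis from 0) of each of the 7 genes in each of the 9 libraries, with EAE mice given SR59230A, EAE mice and naive mice from left to right; black lines are means and bars SDs (n = 3). The naive libraries lie below all other libraries for every gene but Cebpb, whose naive replicate 2 (574) lies among the immunized libraries.

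Cebpa, whose product commits progenitors to the granulocyte-monocyte branch, stood at 681, 707 and 703 in treated EAE mice, 826, 843 and 688 in EAE mice and 366, 404 and 428 in naive mice. Every immunized library was thus above the highest naive one, and the immunized groups overlapped. The log2 fold change in EAE against naive mice was 0.98 ± 0.11 (limma-trend adjusted p = 0.000258), and Cebpa ranked 87 of 13018 genes by p.

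The 250 bases before the RefSeq start of Cebpa are shown because this gene rose in both immunized groups and acts at the opening of the myeloid program. Spi1, of which both are also true, had no window in the RefSeq table. They lie at chr7:35119043-35119292 on the plus strand of GRCm38.p6, a build used for the sequence alone, since no source used here states the build behind the deposited table. Capitals mark 2 matches to the 8 motifs searched on both strands, a short C/EBP core (TTGCG) and a TATA box (TATAAA).
Cebpa: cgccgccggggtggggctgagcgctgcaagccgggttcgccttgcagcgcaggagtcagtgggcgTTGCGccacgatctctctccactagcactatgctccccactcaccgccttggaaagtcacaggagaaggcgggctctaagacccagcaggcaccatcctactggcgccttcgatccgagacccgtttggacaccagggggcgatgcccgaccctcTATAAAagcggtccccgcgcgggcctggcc
The short C/EBP core lies between 185 and 181 bases before the start, and the TATA box between 30 and 25 bases before it. Of 32851 RefSeq promoter windows of 250 bases, 14.5% held the short core and 12.4% the TATA box. A match of letters is a description and does not show that a factor binds there. The other motifs searched were the full C/EBP site TTGCNNAA (in 9.56% of windows), the PU.1 core GGAAGT (19.7%), the STAT site TTCNNNGAA (7.02%), the interferon-stimulated response element (2.98%), the GFI1 core AAATCA (12.4%) and the cAMP-response core TGACG (17.8%).

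Spi1, the gene of PU.1, was 2159, 2309 and 2421 in treated EAE mice, 2257, 2437 and 2199 in EAE mice and 1806, 1884 and 1855 in naive mice. The naive libraries lay below all others, but the step was small, with a log2 fold change of 0.31 ± 0.09 in EAE against naive mice (limma-trend adjusted p = 0.0376). The call was lost without scaling (limma-trend adjusted p = 0.160), with upper-quartile scaling (0.0963), without EAE replicate 2 (0.0526), without naive replicate 1 (0.0760) and with the chemosensory term described below (0.284), within a range of 0.00531 to 0.284 over 18 alternatives.

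Cebpd, a family member induced by STAT3 signalling in the acute-phase response, was 159, 139 and 183 in treated EAE mice, 166, 236 and 226 in EAE mice and 69.9, 54.0 and 66.7 in naive mice. Every EAE library held more than 2 times the highest naive value, and the treated libraries overlapped the EAE libraries at their lower end. It rose by 1.71 ± 0.19 on the log2 scale in EAE against naive mice (limma-trend adjusted p = 0.000258).

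Cebpb, which drives granulocyte production in emergencies such as infection, was 571, 486 and 520 in treated EAE mice, 527, 653 and 734 in EAE mice and 401, 574 and 316 in naive mice. Naive replicate 2 exceeded EAE replicate 1 and all treated libraries, so the groups overlapped. The log2 fold change in EAE against naive mice was 0.60 ± 0.20 (limma-trend adjusted p = 0.0636). Without naive replicate 2 it was 0.83 and passed (limma-trend adjusted p = 0.00911), and without EAE replicate 1 it was 0.73 and passed (0.0304). Over 18 alternatives the adjusted p ran from 0.00911 to 0.792. Cebpb did not pass in treated EAE against naive mice either (0.33 ± 0.20, limma-trend adjusted p = 0.275).

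Cebpe, whose product switches on the secondary granule genes of maturing neutrophils, was low throughout. It was listed at 7.12, 13.2 and 9.99 in treated EAE mice, 27.1, 10.2 and 15.6 in EAE mice and 1.01, 5.69 and 2.82 in naive mice. Only libraries of immunized mice reached the filter value of 10, so the gene entered the test through the groups in which it was high. In EAE against naive mice the log2 fold change was 2.24 ± 0.60 (limma-trend adjusted p = 0.0283, and 0.0263 without a filter). Its size moved with the pseudocount, to 1.03 with 10 and 2.65 with 0.1, and the call held with both. The call was lost without EAE replicate 1 (limma-trend adjusted p = 0.0614) and without naive replicate 1 (0.0683), with 0.00780 to 0.650 over 17 alternatives. Cebpe was not called in treated EAE against naive mice (1.55 ± 0.59, limma-trend adjusted p = 0.101).

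Gfi1 encodes a zinc finger repressor that restrains monocyte genes in neutrophil precursors. It was 834, 912 and 892 in treated EAE mice, 935, 807 and 856 in EAE mice and 661, 673 and 758 in naive mice. The naive libraries lay below all others, but the log2 fold change of 0.31 ± 0.10 in EAE against naive mice did not pass (limma-trend adjusted p = 0.0621). It passed in 7 of 18 alternatives, among them the fit without EAE replicate 2 (limma-trend adjusted p = 0.0355) and the fit without naive replicate 3 (0.0270), and the range was 0.0140 to 0.394. Gfi1 passed in treated EAE against naive mice with nearly the same difference (0.34 ± 0.10, limma-trend adjusted p = 0.0460).

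Irf8, the gene of the factor that directs progenitors to monocytes and dendritic cells, had its groups in the order treated EAE, EAE and naive. It was 4792, 3932 and 3439 in treated EAE mice, 2889, 2319 and 3476 in EAE mice and 1194, 1404 and 1283 in naive mice. Both immunized groups lay above every naive library, and the immunized groups overlapped through EAE replicate 3. The log2 fold change was 1.15 ± 0.16 in EAE against naive mice (limma-trend adjusted p = 0.000885) and 1.64 ± 0.15 in treated EAE against naive mice (limma-trend adjusted p = 7.98e-05).

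The promoter window of Irf8 is shown because Irf8 rose in both immunized groups and had the lowest unadjusted p of the 7 genes between them. It belongs to the upstream one of 2 RefSeq starts and lies at chr8:120736108-120736357 on the plus strand of GRCm38.p6, and capitals mark every match to the same 8 motifs.
Irf8: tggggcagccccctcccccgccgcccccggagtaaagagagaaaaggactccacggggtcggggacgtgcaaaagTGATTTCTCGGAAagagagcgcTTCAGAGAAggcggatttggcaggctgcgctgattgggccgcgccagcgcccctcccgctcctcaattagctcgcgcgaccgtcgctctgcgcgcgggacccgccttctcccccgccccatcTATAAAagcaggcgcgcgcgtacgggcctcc
Irf8 held 2 STAT sites, TTCTCGGAA at 171 to 163 and TTCAGAGAA at 153 to 145 bases before the start. The first overlaps a GFI1 core read on the other strand (TGATTT, 175 to 170 bases before the start). A TATA box lies 31 to 26 bases before the start, at nearly the same distance as in Cebpa. Of the 7 genes, 4 had a window in the RefSeq table. The other two with a window, Cebpb and Gfi1, held no TATA box. Cebpb held 3 cAMP-response cores, and the window of 1 start of Gfi1 held 1 full C/EBP site, TTGCTGAA.

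The second comparison asks what the antagonist changed in immunized mice. None of the 7 genes passed in treated EAE against EAE mice, where 1 of 13018 genes (0.00768%) was called by limma-trend. At an unadjusted p under 0.05 there was 1 of the 7, Irf8, against 3.87% of all genes. Irf8 was 1.40-fold higher, with a log2 fold change of 0.49 ± 0.16 and a 95% interval of 0.15 to 0.83 (limma-trend unadjusted p = 0.00859, adjusted p = 0.998). It ranked 62 of 13018 genes by p. The 4 C/EBP genes all had negative log2 fold changes that did not pass, at -0.17 ± 0.11 for Cebpa, -0.27 ± 0.20 for Cebpb, -0.38 ± 0.19 for Cebpd and -0.69 ± 0.59 for Cebpe. For Spi1 and Gfi1 the 95% intervals were -0.20 to 0.19 and -0.20 to 0.25 around values of -0.0018 and 0.02. The interval of the low gene Cebpe was much wider, from -1.99 to 0.61. For none of the 7 genes did the groups stand apart, against 16.2% of all genes.

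**Figure D2:**
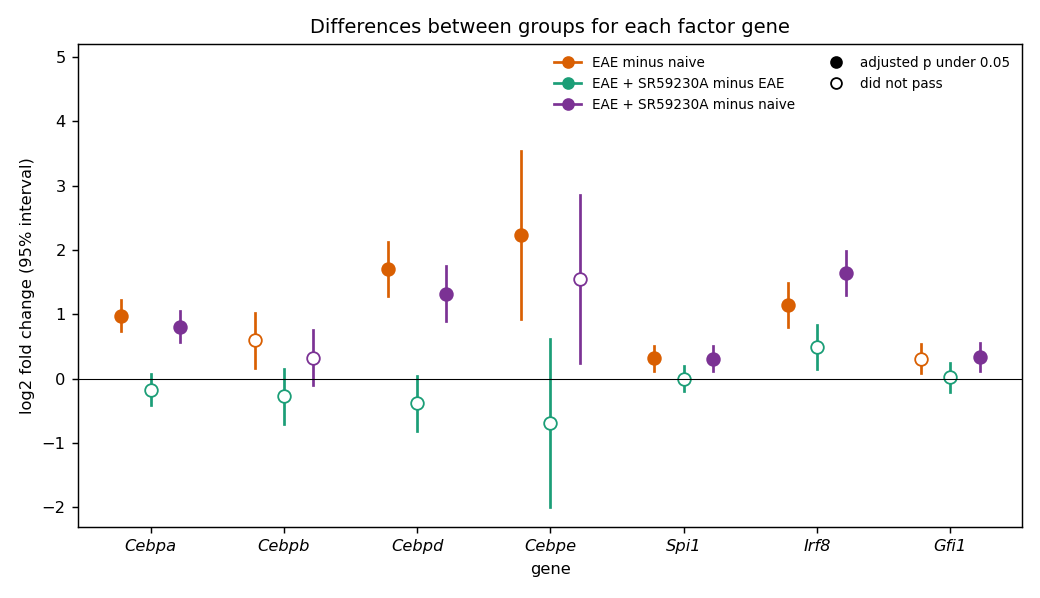
Log2 fold change (points) with its unadjusted 95% interval (lines) for each gene in the 3 comparisons; filled points passed at an adjusted p under 0.05 (limma-trend). Irf8 stands at 1.15, 0.49 and 1.64 from left to right, and no green point, treated EAE minus EAE, is filled.

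Among dendritic cell markers, Siglech and Itgax rose in treated EAE against naive mice, and none passed in EAE against naive mice or between the immunized groups. Siglech, a receptor gene of plasmacytoid dendritic cells, was 235, 77.5 and 55.5 in treated EAE mice, 30.7, 28.7 and 98.0 in EAE mice and 12.2, 20.8 and 7.51 in naive mice. Clec9a, a receptor gene of conventional dendritic cells, was 159, 68.3 and 75.5 in treated EAE mice, 21.7, 23.5 and 104 in EAE mice and 42.6, 24.6 and 23.5 in naive mice. Treated replicate 1 was highest of the 9 libraries for Irf8, Siglech and Clec9a alike, and EAE replicate 3 was the highest EAE library for all of them. Of 5 listed dendritic markers 4 were in the table, and their summed level was 399 to 695 in treated EAE mice, 220 to 509 in EAE mice and 197 to 239 in naive mice. Xcr1, a marker of the conventional subset, stayed between 1.02 and 13.5. The part of dendritic cells in the level of Irf8 was not tested. Without treated replicate 1 the log2 fold change of Irf8 in treated EAE against EAE mice was 0.37, and without EAE replicate 3 it was 0.63.

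**Figure D3:**
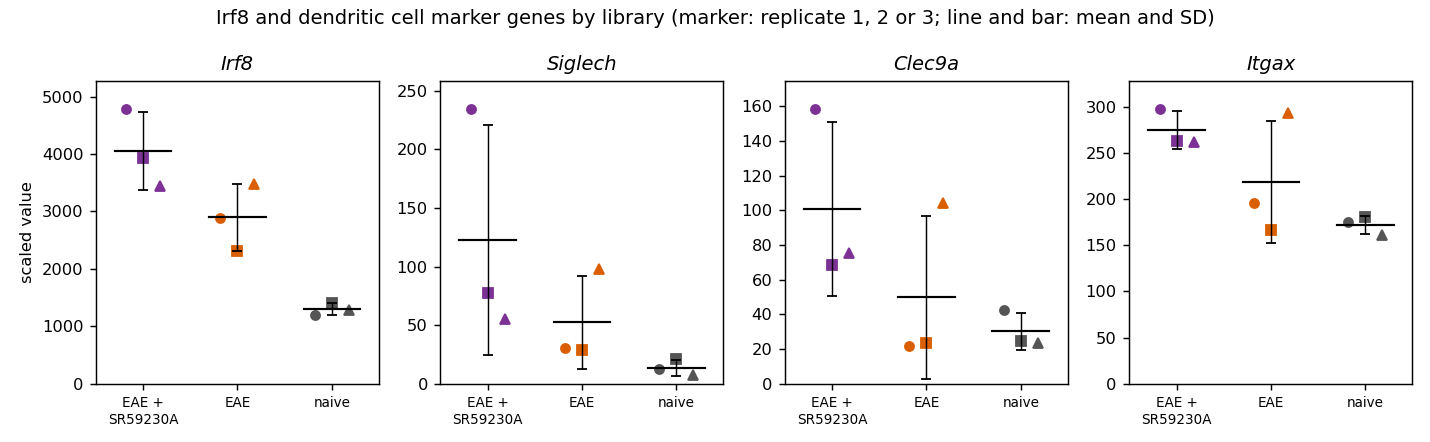
Scaled values (linear axes from 0) of Irf8 and of the dendritic cell marker genes Siglech, Clec9a and Itgax in each library, with means (lines) and SDs (bars, n = 3). The circle of treated EAE replicate 1 and the triangle of EAE replicate 3 are the highest of their groups in all 4 panels.

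In treated EAE against naive mice, Irf8, Cebpd, Cebpa, Gfi1 and Spi1 rose and none fell, against 10.2% of all genes called higher, 4.61% lower and 14.8% in either direction. The groups stood apart, treated EAE above naive, for the same 6 genes as in EAE against naive mice and for 26.4% of all genes. This comparison shares its treated libraries with the one before and its naive libraries with the first, so it adds no independent evidence. Cebpd was 2.50-fold and Cebpa 1.75-fold higher, against 3.26-fold and 1.97-fold in EAE against naive mice. Irf8 was 3.12-fold higher, against 2.22-fold. The calls of Spi1 and Gfi1 were weak: without scaling, with upper-quartile scaling, and without treated replicate 2, treated replicate 3 or naive replicate 1 neither passed, with limma-trend adjusted p from 0.0637 to 0.347 in these fits. Over 18 alternatives the adjusted p ran from 0.00515 to 0.498 for Spi1 and from 0.00805 to 0.585 for Gfi1. Without scaling the median log2 fold change of all genes moved to -0.11 in this comparison.

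Calls for all these genes met a further limit. Genes of chemosensory receptors, best known from smell and pheromone sensing, held 0.0817% to 0.101% of the values in treated EAE mice, 0.108% to 0.122% in EAE mice and 0.153% to 0.183% in naive mice, with no overlap. With their level as a further term, 0 of the 7 genes passed in any comparison. In EAE against naive mice 111 genes then passed in all by limma-trend, and in treated EAE against naive mice 13. With this term the log2 fold changes in EAE against naive mice were 1.19 ± 0.26 for Cebpa and 2.12 ± 0.45 for Cebpd (limma-trend adjusted p = 0.0637 and 0.0593). They were 1.58 ± 1.40 for Cebpe, 0.50 ± 0.20 for Spi1, 0.47 ± 0.24 for Gfi1, 0.34 ± 0.25 for Irf8 and -0.27 ± 0.37 for Cebpb (limma-trend adjusted p from 0.284 to 0.792). Since the level separates the groups, its effect and that of the group cannot be told apart.

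Pairs of factor genes were compared within each library as a difference of log2 levels, in which effects of gene length cancel between groups. Irf8 minus Gfi1, the pair on opposite sides of the monocyte and neutrophil choice, was 2.52, 2.11 and 1.95 in treated EAE mice, 1.63, 1.52 and 2.02 in EAE mice and 0.85, 1.06 and 0.76 in naive mice. The naive libraries lay below all others, and the immunized groups overlapped. In EAE against naive mice the difference moved by 0.83, and in treated EAE against EAE mice by 0.47. The exact 2-sided permutation tests gave p = 0.10, the smallest that 3 against 3 libraries allow, and p = 0.20, or 0.225 and 0.327 after Benjamini-Hochberg adjustment over 18 tests.

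Spi1 minus Cebpa ran the other way. It was 1.66, 1.71 and 1.78 in treated EAE mice, 1.45, 1.53 and 1.68 in EAE mice and 2.30, 2.22 and 2.11 in naive mice, a shift of -0.66 in EAE against naive mice (exact permutation p = 0.10, adjusted 0.225). Cebpa thus rose more than Spi1 in every EAE library relative to every naive one. Against the erythroid factor gene Gata1, which itself rose by 0.68 ± 0.18, the difference for Spi1 moved by -0.36 in EAE against naive mice. Against Gata2, a factor gene of stem cells and mast cells, it moved by 0.48. Both pairs separated EAE from naive libraries (exact permutation p = 0.10, adjusted 0.225 each). Cebpb minus Cebpa and Cebpe minus Cebpa overlapped between the groups in all 3 comparisons.

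**Figure D4:**
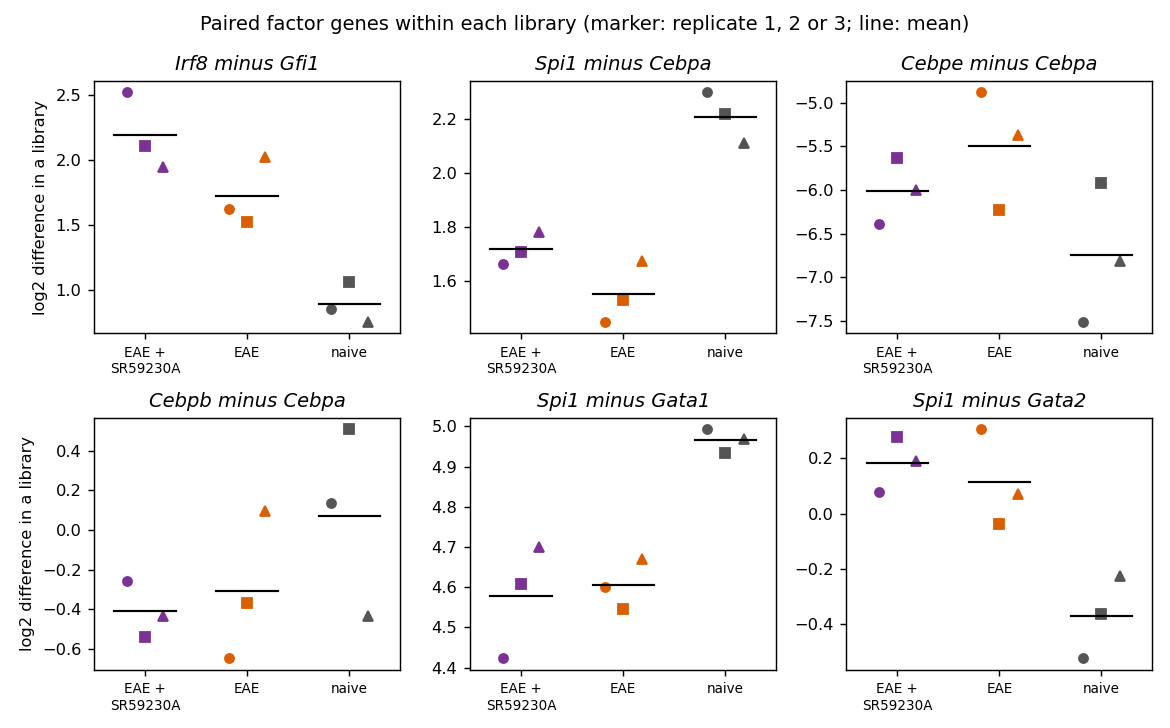
Difference of log2(scaled value + 1) between the genes of 6 pairs in each library, with group means as lines; the vertical axes do not start at 0 and differ between panels. Irf8 minus Gfi1 is lowest in the naive libraries (0.76 to 1.06) and Spi1 minus Cebpa is highest there (2.11 to 2.30).

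Of 12 target genes of C/EBPα and PU.1, 8 rose and none fell in EAE against naive mice, with a median log2 fold change of 1.55. Among all genes tested, 9.13% were called higher and 5.1% lower, the shares to set beside each count in this paragraph. The neutrophil elastase gene Elane led at 4.93 ± 0.25, followed by the granule protease gene Ctsg at 3.53 ± 0.18, the endotoxin coreceptor gene Cd14 at 3.16 ± 0.30 and the protease gene Prtn3 at 2.30 ± 0.12. Of 7 measured secondary granule targets of C/EBPε, 2 rose: Lcn2, the lipocalin gene, by 1.98 ± 0.45 and Cybb, the NADPH oxidase subunit gene, by 1.56 ± 0.23. The transferrin-family granule gene Ltf, at 647, 147 and 1154 in EAE and 194, 163 and 349 in naive mice, did not pass, and EAE replicate 2 lay below all naive libraries. Markers of granulocyte-monocyte progenitors moved with these genes, with a summed level of 13177 to 20303 in EAE and 1825 to 2441 in naive mice over 6 of 6 genes, all of which rose. Of these 6 markers 4 (Mpo, Elane, Prtn3 and Ctsg) are also among the target genes. The sum of 10 neutrophil markers overlapped, at 3212 to 15584 in EAE and 2363 to 6308 in naive mice. Against 9.13% of all genes called higher, a similar share, 1 of the 10 rose and none fell. That gene was Cxcr2, a chemokine receptor gene, at 44.2, 58.3 and 68.8 in EAE mice against 8.11, 5.69 and 8.45 in naive mice, with no overlap (log2 fold change 2.80 ± 0.35, limma-trend adjusted p = 0.000478). The part of such cells in the factor genes was not tested.

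Among 8 measured genes that depend on IRF8 in monocytes and dendritic cells, 4 rose and 1 fell in EAE against naive mice. Of all genes tested, 9.13% were called higher and 5.1% lower there. The chemokine receptor gene Ccr2 rose by 4.13 ± 0.14, the gene Ly86, whose product associates with a Toll-like receptor relative, by 1.83 ± 0.30 and the DNA sensor gene Tlr9 by 1.12 ± 0.22. Ciita, the master regulator of MHC class II genes, fell, at 44.2, 44.0 and 47.9 in EAE mice against 80.1, 80.6 and 74.2 in naive mice. In treated EAE mice Ciita was 81.4, 84.6 and 78.8, above all EAE libraries, without passing against EAE mice (log2 fold change 0.84 ± 0.19). Of these 8 genes 7 had a positive log2 fold change in treated EAE against EAE mice, with a median of 0.42 against 0.01 for all genes, and none passed. The exception was Ccr2, at 909, 877 and 1072 in treated EAE mice and 1145, 1088 and 1283 in EAE mice, with no overlap (log2 fold change -0.31 ± 0.14). Mostly positive values were not particular to this list. They were also held by 10 of 10 lymphoid factor genes (median 0.20), 8 of 10 neutrophil markers (0.48) and 6 of 7 C/EBPε targets (0.36). Fewer were positive among C/EBPα and PU.1 targets (3 of 12), myeloid cytokine inputs (6 of 15) and granulocyte-monocyte progenitor markers (1 of 6).

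The next 3 lists are short, and in EAE against naive mice 14.2% of all genes were called in either direction, 9.13% higher and 5.1% lower. Of 7 measured genes that GFI1 is known to repress, Gfi1b, a paralog that acts in red cells and platelets, fell by 0.62 ± 0.16, Hoxa9, a homeobox gene of progenitors, fell by 0.51 ± 0.09 and Csf1, the gene of macrophage colony-stimulating factor, rose by 0.45 ± 0.13. Of 4 measured corepressor genes that work with GFI1, Hdac2, a histone deacetylase gene, rose by 0.31 ± 0.09 and none fell. Kdm1a, another of them, lay lower in every EAE library than in every naive one without passing (-0.26 ± 0.11). In treated EAE against naive mice Kdm1a fell by 0.37 ± 0.11 and Hdac2 did not pass (limma-trend adjusted p = 0.0469 and 0.0747). Among 5 genes of C/EBP partners and of Tribbles adaptors, Trib2 fell by 1.01 ± 0.27. It was 26.2, 36.8 and 35.4 in EAE and 75.0, 67.3 and 57.3 in naive mice. Its relative Trib1, a gene of higher level, moved the other way at 0.96 ± 0.30 without passing (limma-trend adjusted p = 0.0527). Trib1 was 768, 1306 and 1209 in EAE and 517, 931 and 347 in naive mice, with overlap.

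On the input side, 7 of 15 measured genes of myeloid cytokine receptors and their signalling rose and none fell, against 9.13% of all genes called higher. Csf1r and Csf3r, which rose, are also among the target genes of C/EBPα and PU.1 above. So are Csf2ra and Il6ra, which did not pass. Csf1r, the macrophage colony-stimulating factor receptor gene, rose by 2.29 ± 0.25, the shared and mouse-specific beta chain genes Csf2rb and Csf2rb2 by 1.63 ± 0.18 and 2.24 ± 0.24, and the feedback inhibitor gene Socs3, a STAT3 target, by 2.10 ± 0.37. Socs3 was 25.3, 26.6 and 45.9 in EAE mice against 6.08, 8.53 and 5.63 in naive mice, with no overlap. Stat3 itself did not pass in EAE against naive mice (0.24 ± 0.09) and rose by 0.42 ± 0.09 in treated EAE against naive mice.

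Of 17 measured genes of other myeloid transcription factors, 3 rose in EAE against naive mice and none fell, where 14.2% of all genes were called: Zeb2, a factor gene of monocytes and dendritic cells, by 0.64 ± 0.09, Nfil3, a basic leucine zipper gene, by 0.61 ± 0.16 and Myc by 0.39 ± 0.11. In treated EAE against naive mice 5 rose, where 10.2% of all genes were called higher. They were the same 3 with Klf4, a monocyte factor gene (1.33 ± 0.32), and Id2, an inhibitor of E proteins needed for dendritic cells (0.77 ± 0.21). Zeb2 was 1059, 1053 and 1023 in treated EAE mice, below the EAE libraries at 1368, 1219 and 1299 and above the naive libraries, without passing between the immunized groups. Of 8 tested erythroid and megakaryocyte factor genes 1 rose, Gata1, and 2 fell, Gfi1b and Zfpm1, a GATA1 cofactor gene (log2 fold change -0.38 ± 0.09). Of 10 lymphoid factor genes 4 fell and none rose, with log2 fold changes of -1.89 ± 0.46 for Pax5, the B cell commitment gene, -0.61 ± 0.13 for Mef2c, -0.45 ± 0.13 for Notch1 and -0.32 ± 0.10 for Bcl11a. None of the genes in any of these lists passed in treated EAE against EAE mice.

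**Figure D5:**
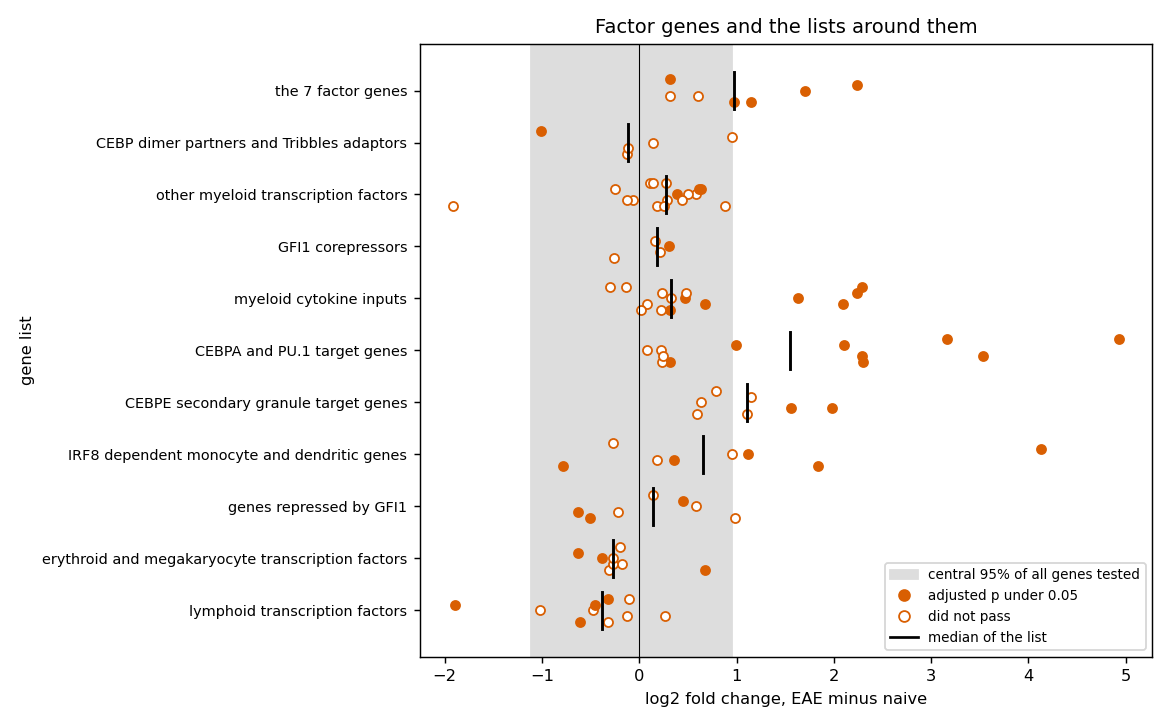
Log2 fold change in EAE minus naive mice (horizontal axis) of every tested gene in the 7 factor genes and the 10 lists around them; filled points passed (limma-trend adjusted p under 0.05), black lines are list medians and the grey band holds the central 95% of all 13018 genes, -1.11 to 0.96. The target genes of C/EBPα and PU.1 reach 4.93, while the median of the lymphoid factor genes is -0.39.

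The genes whose pattern over the 9 libraries was most like that of each factor gene were found among 8696 to 8697 genes with a mean of at least 100. Cebpa was closest to Pno1, Myd88 and Mpo (Pearson r 0.997, 0.995 and 0.994), of which Myd88 is the adaptor gene of Toll-like receptors and Mpo the myeloperoxidase gene. Cebpd was closest to Pstk, Bcap29 and Gclm (0.996, 0.996 and 0.994) and Spi1 to Rbm28, Nomo1 and Mrpl38 (all 0.995). Irf8 was closest to Ms4a4c, to Prkdc, a DNA repair kinase gene, and to the macrophage perforin gene Mpeg1 (0.984, 0.982 and 0.982). Gfi1 was closest to 1600014C10Rik, Adar and Reep4 (0.997, 0.993 and 0.990), Cebpe to Srrt, Ept1 and Slc43a3 (all 0.982) and Cebpb to Mre11a, Pikfyve and Ezh2 (0.989, 0.985 and 0.980). These coefficients are descriptions over 9 libraries that share their group differences and their adjustment by the authors. Among the 7 genes themselves, Cebpa and Spi1 were most alike (r = 0.95) and Cebpb and Gfi1 least (r = 0.32).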

How the data were processed

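The deposited table holds whole numbers for 14940 genes in 9 libraries, whose unit was taken as a score, that is, a value adjusted by the authors and not a read count. On ln(value + 1), 2 of 8 principal components held 6.7e-05% and 5.94e-05% of the variance, which independent counts cannot do. The missing directions lay within groups (99.4% and 99.7%), so spread between mice may be understated. DESeq2 appears in the submitters' processing notes with no version and no stated use. Aligner, build and annotation: not given in the sources used here. Per the labels, replicates are separate mice. Replicates were numbered by order of deposition.

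Each library was divided by its median-of-ratios factor, genes at 10 or more in 3 libraries or more were kept (13018), and log2(value + 1) fitted with limma-trend (limma 3.58.1, R 4.3.3), 2-sided, over all 9 libraries with the 2 missing directions as terms (4 residual degrees of freedom, prior 7.52). Pairs used exact permutation tests. The fit was tested on simulated data. Per library precision is unknown because no depth is given. The alternatives were scaling, pseudocount, filter, missing directions, 2 groups alone, a chemosensory term and each library left out.

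The 7 genes and all lists were chosen with earlier results of these data known. Up to 4 passing genes per list, those with the largest change in EAE against naive mice, are named, and 3 genes of most similar pattern per factor. Stat3, Trib1, Ltf, Cxcr2, Klf4, Id2, Kdm1a, Csf3r, Csf2ra and Il6ra were named after their values were seen. Lists that the text does not name singly are the B, T, erythroid and macrophage markers, given under other observations, where 1 marker is not reported. Symbols matched GENCODE M21 for 14132 genes. Promoters came from RefSeq (GRCm38.p6).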

Additional observations from a re-analysis of the deposited data

How the results depend on the processing

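The 7 genes were compared under 16 to 18 alternatives in each comparison, 374 values in all. Of these 323 kept direction and side of the threshold, 28 lost and 13 gained a call, and 10 changed sign. No paired analysis was possible because the labels give no pairing and replicates were numbered as deposited. In EAE against naive mice 1059 genes were called without scaling and 3485 when the missing directions were left out. The chemosensory term left 111 genes and 0 of the 7. Leaving out 1 library gave 1239 to 2624 genes and 3 to 6 of the 7, with 3 without naive replicate 1. In treated EAE against naive mice 1073 genes and 3 of the 7 were called without scaling, 3 of the 7 with upper-quartile scaling, 3920 genes without the missing directions, 4442 with the 6 libraries alone, and 13 genes and 0 of the 7 with the chemosensory term. Leaving out 1 library gave 1234 to 3327 genes and 3 to 6 of the 7, with 3 without treated replicate 2, treated replicate 3 or naive replicate 1. In treated EAE against EAE mice 0 genes were called with the chemosensory term (limma-trend) and 1 in every fit that left out a library. Upper-quartile scaling called 807 of 1717 genes higher in EAE against naive mice, where the main scaling called 1189 of 1853. In treated EAE against naive mice 835 of 1789 were higher with upper-quartile scaling and 489 of 1073 without scaling, against 1332 of 1932.

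Signs changed as follows. With the chemosensory term the log2 fold change of Cebpb was -0.27 in EAE and -1.12 in treated EAE against naive mice, and in treated EAE against EAE mice that of Spi1 was 0.12 and that of Irf8 -0.051. In the last comparison Gfi1 was -0.063 without scaling, and leaving out 1 library gave -0.026 (without EAE replicate 2) to 0.080, with -0.0059 without treated replicate 2. Spi1 was 0.00092 with the 6 libraries alone, and leaving out 1 library gave -0.042 to 0.043, positive without treated replicate 1 or EAE replicate 2. The pair Cebpe minus Cebpa turned to -0.18 in treated EAE against naive mice with a pseudocount of 10. Without 1 library, treated EAE against EAE ranged from -0.090 to 0.049 for Spi1 minus Gata1, from -0.0057 to 0.17 for Spi1 minus Gata2 and from -0.27 to 0.10 for Cebpb minus Cebpa. The cause was not tested for any of these. Cebpe could not be tested at a minimum value of 50.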

Other observations

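The summed level of 5 measured monocyte and macrophage markers was 147 to 175 in treated EAE mice, 143 to 199 in EAE mice and 40.7 to 99.5 in naive mice, and Cd14 was the highest of them in every immunized library. T cell markers (3 measured of 5) summed to 149 to 185 in treated EAE mice, 165 to 187 in EAE mice and 139 to 218 in naive mice, nearly all of it Cd4, with Cd8a at 0 in EAE replicates 1 and 2. Of the B cell markers, Cd79b held 825 to 852 in treated EAE mice, 713 to 752 in EAE mice and 719 to 742 in naive mice. Erythroid markers (3 measured of 5) summed to 117 to 182 in treated EAE mice, 86.0 to 132 in EAE mice and 78.1 to 114 in naive mice.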
